A study of Mus musculus with 7 samples.

Results

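Ribosome biogenesis factors are the proteins that transcribe, modify, cut and fold ribosomal RNA (rRNA) and assemble it with ribosomal proteins without being part of the finished ribosome. A list of 36 such genes was followed in mouse liver around the clock. Each gene was read through the probe set that names it alone, taking the one with the highest mean where a gene had several, and was kept if its mean over the 7 arrays lay above 85 units on the natural scale. Of the 36 genes, 35 passed, among 10966 genes tested in all. Polr1e lay closest above the minimum with a mean of 105 units, and Rrs1, a large subunit factor, lay below it with 74.0 units. Liver RNA came from male C57/BL6 mice, aged 9 to 11 weeks at the start, which were held in 12 h of light and 12 h of dark with free access to food for 2 weeks and were then fed in the dark phase alone, from ZT12 to ZT24, for 7 days. Zeitgeber time (ZT) counts hours from lights on, so that lights went off at ZT12 and ZT26 was the clock hour of ZT02 on the following day. At each of 7 times, 4 h apart and running from ZT02 to ZT26, equal amounts of RNA (500 ng) from the perfused livers of 5 mice were pooled and measured on 1 Affymetrix Mouse Gene 1.0 ST array. No time point had a second pool, so the spread between mice is not measured, and light, feeding and clock time cannot be told apart.

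rRNA is transcribed in the nucleolus by RNA polymerase I, and the long transcript is modified at sites chosen by small nucleolar RNAs (snoRNAs) in 2 kinds of particle, box C/D for methylation and box H/ACA for pseudouridylation. Large assemblies of further factors then cut the transcript and build the small and the large ribosomal subunit. Making ribosomes is among the costliest tasks of a growing cell, and the genes for these factors are known as targets of the transcription factor Myc and as responsive to nutrients through TOR signalling.

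The array medians lay between 6.37 and 6.40 in log2, and arrays correlated with the rest at a mean r of 0.991 to 0.993. Rhythms were sought by fitting a 24 h cosine to the log2 signals and testing its terms jointly in limma, with an adjusted p under 0.05 over 12076 probe sets as the threshold for a rhythmic call. Such a p says how far a cosine stands out from the scatter of the 7 pools around it. All 6 clock genes examined as a check were called. Hepatocyte markers had 9 of 9 genes above 85 units, with a summed signal of 112887 to 118546 units.

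Most of the 35 factors had their maximum in the early night. On the ZT14 array, 2 h after lights off, 26 of the 35 (74.3%) had their highest signal of the 7 arrays, against 18.2% of all tested genes. With ZT18 included the count was 31 of 35 (88.6%), against 31.7% of all tested genes. At ZT14, 33 of the 35 lay above the mean of their other 6 arrays, against 51.2% of all tested genes. The median difference between ZT14 and the mean of the other arrays was 0.32 in log2 (quartiles 0.13 and 0.45), against 0.00 over all tested genes. These are counts over genes measured on the same 7 pools and carry no test, since the genes are not replicates of a time point.

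**Figure D1:**
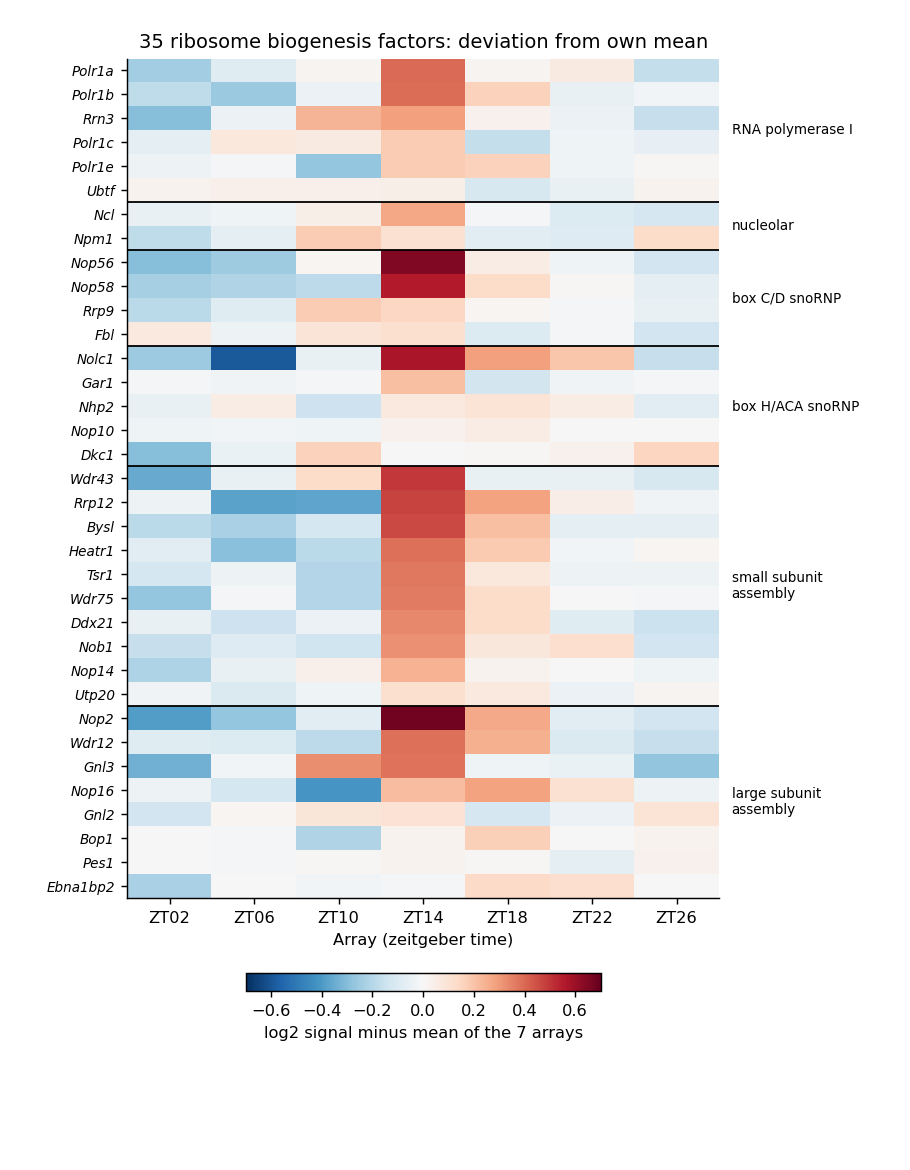
Log2 signal of each of the 35 factors on each array (zeitgeber time on the horizontal axis) minus the gene's own mean, red above and blue below it, with the genes grouped by role. The ZT14 column is red in 33 of the 35 genes, most strongly in Nop2, Nop56, Nolc1 and Nop58, and the ZT02 column is blue in all but 3.

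The low point was less sharply shared. The lowest array was ZT02 in 15 factors (42.9%), against 21% of all tested genes, ZT10 in 7 and ZT06 in 6. In the order ZT02 to ZT26, the number of factors above their own mean was 3, 5, 15, 33, 26, 10 and 10 of 35. The median deviation from the mean followed the same course, with -0.13, -0.05, -0.03, 0.27, 0.07, -0.03 and -0.04 in log2. The median was thus lowest at ZT02, highest at ZT14 and above the mean at ZT18. It lay slightly below the mean, by similar amounts, at ZT06, ZT10, ZT22 and ZT26. The low point of ZT02 did not recur a day later, as ZT26 was the lowest array in 3 factors. At ZT14, 27 of 35 (77.1%) exceeded both neighbouring arrays, ZT10 and ZT18, as did 26.9% of all tested genes. ZT02 and ZT26 are pools of the same clock hour on consecutive days and give the one view of how far pools differ at equal times. Their median absolute difference over the factors was 0.089 in log2, against 0.091 over all tested genes, and ZT26 was the higher of the pair in 28 of 35 factors (80%) and in 63.5% of all tested genes. The ZT14 difference of a factor was larger than its own absolute difference between ZT26 and ZT02 in 29 of 35, against 25.8% of all tested genes.

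**Figure D2:**
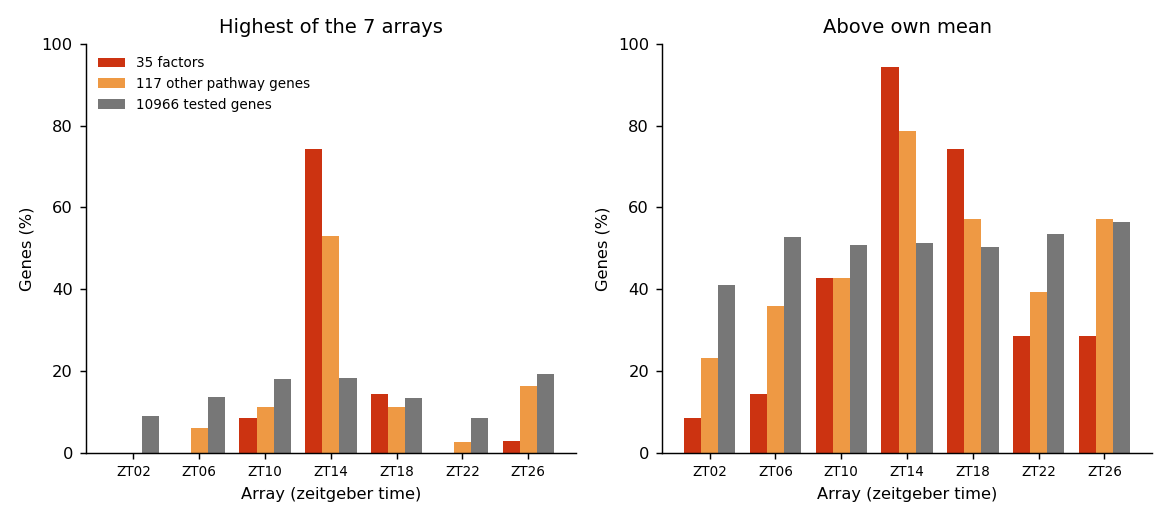
Share of genes (%) with their highest signal on each array (left) and share above their own mean on each array (right), for the 35 factors, 117 other genes of the pathway and the 10966 tested genes. The factors reach 74.3% at ZT14 in the left panel and 94.3% in the right one, where the tested genes stay between 41.0% and 56.6% on every array.

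The cosine fits placed the factors in the night as well. The circular mean of their fitted peak times was ZT15.0 with a mean resultant length of 0.73, on a scale where 1 is perfect agreement and 0 is an even spread, against 0.02 over all tested genes. Fitted peaks fell between ZT12 and ZT18 in 23 of 35 factors (65.7%), against 26.8% of all tested genes, and in the dark phase in 28 (80%), against 50.8%. Amplitudes, the fitted distance from mean to peak, were small. Their median was 0.15 in log2 (quartiles 0.09 and 0.26), against 0.09 over all tested genes (quartiles 0.05 and 0.17), and they ran from 0.017 for Pes1 to 0.47 for Nolc1. Between the highest and the lowest array there was a median of 1.39-fold, against 1.25-fold over all tested genes. It was more than 1.5-fold in 13 factors (37.1%), against 16.6% of all tested genes.

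Few of these rhythms passed the test gene by gene. Gnl3 and Rrn3 were called, 2 of 35 factors (5.71%), against 4.54% of all tested genes (4.47% of probe sets), which is a share near the background. Both had a fitted peak between ZT12 and ZT18, and 1.4% of all tested genes were called with such a peak. At an unadjusted p under 0.05 the count was 19 of 35 (54.3%), against 26.1% of all tested genes. By the mRNA part of the thresholds in the study's methods, the count was 12 of 35 (34.3%), against 13.8% of all tested genes. That part is Fisher's one-period test at a p under 0.25 and a fold change above 1.5. The methods do not say how the fold was taken. Here it was read as the highest over the lowest array, and the count depends on that reading. The methods also required RNA polymerase II (Pol II) loading above background and accepted rhythms in Pol II instead of mRNA, which was not applied here. Most factors thus shared the time of their maximum without passing the test singly.

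**Figure D3:**
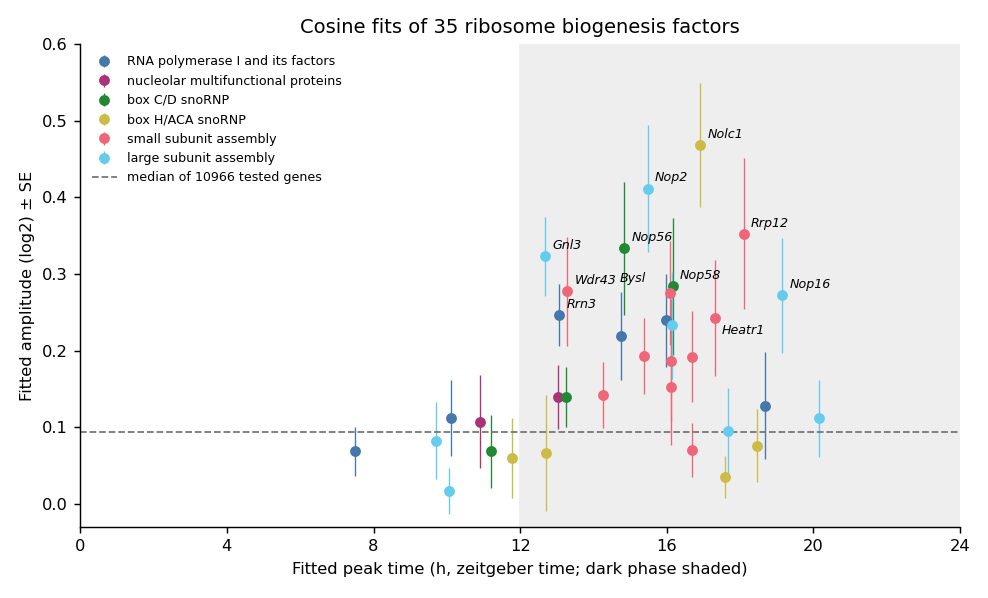
Fitted amplitude (log2, bars show ± SE of the fit) against fitted peak time (h) for the 35 factors, coloured by role, with the dark phase shaded and the median amplitude of the tested genes as a dashed line. Most points lie between ZT12 and ZT18, 26 of the 35 amplitudes exceed the dashed line, and Nolc1, Nop2 and Rrp12 have the largest.

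Promoter sequence was set beside the timing for the factors called rhythmic and for those with the largest amplitudes, Nolc1 and Nop2. RefSeq windows of build GRCm38.p6, from 250 bases before to 50 after a transcript start, were at hand for 30 of the 35 factors (37 windows). The 250 bases before the start are shown 5′ to 3′ on the gene's strand, with capitals marking the E-box CACGTG, which CLOCK and BMAL1 as well as Myc and Max can bind, or the E-box variant CACGCG, which reads as CGCGTG on the opposite strand.
Nop2, chr6:125131633-125131882, plus strand: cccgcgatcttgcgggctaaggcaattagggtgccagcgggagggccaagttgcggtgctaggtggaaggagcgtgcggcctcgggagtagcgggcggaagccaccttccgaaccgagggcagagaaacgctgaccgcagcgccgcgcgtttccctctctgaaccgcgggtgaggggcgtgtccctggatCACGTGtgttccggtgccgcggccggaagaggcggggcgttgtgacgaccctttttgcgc
Rrn3, chr16:13780449-13780698, plus strand: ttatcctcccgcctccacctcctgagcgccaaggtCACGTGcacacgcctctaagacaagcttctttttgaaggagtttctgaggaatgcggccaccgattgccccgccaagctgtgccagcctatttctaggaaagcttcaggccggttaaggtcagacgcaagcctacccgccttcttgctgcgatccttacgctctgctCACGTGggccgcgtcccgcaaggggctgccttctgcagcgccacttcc
Nolc1, chr19:46075597-46075846, plus strand: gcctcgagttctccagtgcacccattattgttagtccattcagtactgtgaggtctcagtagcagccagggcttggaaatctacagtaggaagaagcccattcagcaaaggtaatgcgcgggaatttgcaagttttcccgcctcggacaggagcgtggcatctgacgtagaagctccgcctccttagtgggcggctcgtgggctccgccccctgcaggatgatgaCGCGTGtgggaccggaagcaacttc
Gnl3, chr14:31019132-31019381, minus strand: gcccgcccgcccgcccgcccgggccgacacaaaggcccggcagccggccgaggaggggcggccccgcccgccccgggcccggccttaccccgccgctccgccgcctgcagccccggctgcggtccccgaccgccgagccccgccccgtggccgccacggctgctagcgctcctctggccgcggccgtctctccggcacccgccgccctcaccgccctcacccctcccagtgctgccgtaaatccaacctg
Nop2 had 1 E-box, whose first base lay at -60 from the start, Rrn3 had E-boxes at -215 and -48, Nolc1 had the variant at -25, and Gnl3 had neither in this stretch. In the whole windows, read on both strands, CACGTG stood in 16.2% of the factors' windows (Nop2, Pes1, Rrn3, Tsr1, Utp20 and Wdr43), against 10.1% of 11217 windows of tested genes and 7.15% of all 32851 windows. CACGCG stood in 29.7%, against 16.7% and 9.27%. CCGGAAG, a core that Ets factors bind, stood in 27.0%, against 16.8% and 8.86%. The D-box forms TTATGTAA and TTACGTAA stood in none of the 37, against 0.58% and 0.21% of the windows of tested genes. A match is a string of letters, and binding was not measured here.

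Among RNA polymerase I and its factors, 6 of 6 were highest at ZT14, and 1 was called, against 18.2% and 4.54% of all tested genes. The same background shares hold for the role groups below. In groups this small, a count of 0 or 1 called cannot be told from the background. Rrn3, the initiation factor that makes the polymerase competent to start (also known as TIF-IA), measured 8.68, 8.93, 9.21, 9.26, 9.01, 8.93 and 8.82 in log2 from ZT02 to ZT26. It climbed through the light phase, was high on the ZT10 and ZT14 arrays alike, and was lowest at ZT02. The fit gave an amplitude of 0.25 ± 0.04 (SE) with a peak at ZT13.1 ± 0.7 (limma, adjusted p = 0.046). The call was lost whichever array was left out, with adjusted p of 0.053 (without ZT22) to 0.171 (without ZT14). Ubtf, which binds along the rRNA genes and keeps them open, measured 9.33, 9.35, 9.35, 9.35, 9.20, 9.26 and 9.33. Its 7 values lay within 1.11-fold of each other, so that its maximum at ZT14 exceeded the next array by only 0.005, and its fitted amplitude was 0.07 ± 0.03 (adjusted p = 0.386). Polr1a, the largest subunit, had its ZT14 array 0.46 above the mean of the others, and Polr1b, the second-largest, likewise by 0.46. Polr1c, a subunit shared with RNA polymerase III, was 0.21 above, as was Polr1e, a subunit that helps in initiation. In Polr1e, ZT14 exceeded the next array by only 0.014. None of these 4 passed the test, with adjusted p between 0.118 and 0.458. Fitted peaks were less alike than the highest arrays, at ZT10.1 for Polr1c, ZT18.7 for Polr1e and ZT7.5 for Ubtf. They lay between ZT12 and ZT18 in 3 of the 6, against 26.8% of all tested genes.

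Of the multifunctional nucleolar proteins, 1 of 2 was highest at ZT14 and neither was called. Ncl (nucleolin), which binds nascent rRNA, measured 10.08, 10.11, 10.18, 10.41, 10.12, 10.04 and 10.02, with a single high array at ZT14 and the others between 10.02 and 10.18. Npm1 (nucleophosmin), a chaperone of late nucleolar particles, measured 8.76, 8.87, 9.11, 9.04, 8.87, 8.85 and 9.06. Npm1 was highest at ZT10, and its ZT26 array lay 0.30 above its ZT02 array, a larger gap than its ZT14 difference of 0.12. Fitted amplitudes were 0.14 ± 0.04 for Ncl (adjusted p = 0.170) and 0.11 ± 0.06 for Npm1 (adjusted p = 0.487).

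Of the box C/D proteins, 3 of 4 were highest at ZT14 and none was called. Nop56, a core scaffold of the particle, measured 8.96, 9.01, 9.27, 9.91, 9.31, 9.23 and 9.13, and its partner Nop58 measured 7.28, 7.31, 7.33, 8.07, 7.64, 7.52 and 7.45. Both stood out on the ZT14 array alone, 0.60 and 0.43 above their next highest array, which was ZT18 in each. These ZT14 values lay above the fitted cosines, which had amplitudes of 0.33 ± 0.09 (adjusted p = 0.125) for Nop56 and 0.28 ± 0.09 (adjusted p = 0.186) for Nop58. Fbl (fibrillarin), the methyltransferase of the same particle, measured 8.60, 8.49, 8.62, 8.64, 8.43, 8.52 and 8.39. Its maximum at ZT14 was only 0.026 above the next array, and its amplitude was 0.07 ± 0.05 (adjusted p = 0.608). The probe set used here had 20 of 20 neighbours in probe set number on chromosome 7, where Fbl lies. A second probe set annotated to Fbl was highest at ZT10, but 17 of its 20 neighbours belong to chromosome 17. A near-identical copy could share the signal of that second probe set. As the probe sets differ in their highest array, the time of the maximum of Fbl is uncertain. Rrp9, a protein of the U3 particle needed for the first cuts, was highest at ZT10 and only 0.031 lower at ZT14.

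Of the box H/ACA proteins and Nolc1, which was grouped with them, 2 of 5 were highest at ZT14 and none was called. Nolc1 (Nopp140), a carrier of snoRNA particles within the nucleus, measured 7.98, 7.64, 8.18, 8.80, 8.52, 8.42 and 8.07, with its lowest array at ZT06, its highest at ZT14 and a slow decline through the night. The 2.23-fold between these arrays was the largest of the 35 factors. Its amplitude was 0.47 ± 0.08 with a peak at ZT16.9 ± 0.7, and its adjusted p of 0.052 lay just past the threshold. Nop10, a small core protein of the particle, measured 10.61, 10.62, 10.61, 10.67, 10.69, 10.64 and 10.64, within 1.06-fold, with an amplitude of 0.03 ± 0.03 (adjusted p = 0.665). The other core proteins had differing maxima. Gar1 was highest at ZT14, by 0.23 over the next array, Nhp2 at ZT18 and Dkc1, the pseudouridine synthase (dyskerin), at ZT10. For Dkc1 the ZT14 array was level with the mean of the others (a difference of -0.003), and ZT26 exceeded ZT02 by 0.45, the largest such gap among the factors.

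**Figure D4:**
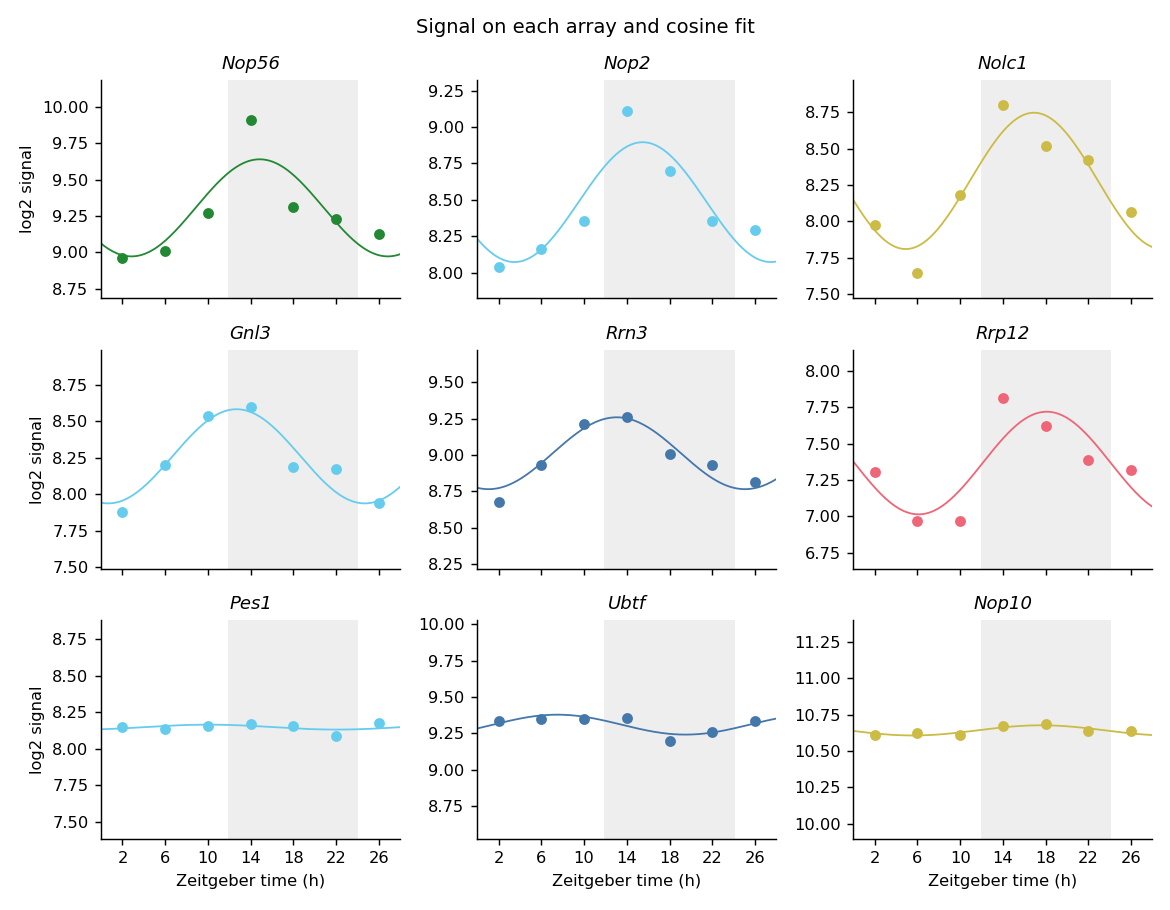
Log2 signal on each array (points) against zeitgeber time (h) with the fitted cosine (line) for 9 of the factors, the dark phase shaded, each panel spanning the same 1.5 log2 units. Nop56 and Nop2 show a single high point at ZT14 that lies above the fitted line, Gnl3 and Rrn3 are high at ZT10 and ZT14, and Pes1, Ubtf and Nop10 are nearly flat.

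All 10 small subunit assembly factors were highest at ZT14, and their fitted peaks had a circular mean of ZT16.0 and a mean resultant length of 0.94, although none was called. Rrp12, which in yeast takes part in subunit export, measured 7.31, 6.97, 6.97, 7.82, 7.62, 7.39 and 7.32. It stayed low at ZT06 and ZT10, was 1.80-fold higher at ZT14 than at its lowest array, and had the largest amplitude of the group, 0.35 ± 0.10 (peak ZT18.1 ± 1.0, adjusted p = 0.146). Utp20, a large scaffold protein of the processome, measured 8.08, 8.00, 8.07, 8.21, 8.17, 8.06 and 8.12. It had the smallest amplitude, 0.07 ± 0.04 (adjusted p = 0.414), and its ZT14 array exceeded ZT18 by 0.045. Between these, Wdr43, Heatr1 and Wdr75, whose yeast counterparts belong to the subcomplex that first meets the transcript, had ZT14 arrays 0.58, 0.45 and 0.42 above the mean of the others. Bysl (bystin) and Tsr1, both late factors of the small subunit, were 0.54 and 0.43 above, and Ddx21, a nucleolar RNA helicase, was 0.39 above. Nob1, the nuclease that makes the last cut of 18S rRNA, was 0.37 above, and Nop14 was 0.28 above. The group's median ZT14 difference of 0.43 was the largest of the 6 role groups. Wider lists of the pathway, described below, had the opposite order. Other small subunit factors had a median ZT14 difference of 0.07, with 19 of 40 highest at ZT14. Other large subunit factors had 0.20, with 29 of 42 highest at ZT14.

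Of the large subunit assembly factors, 4 of 8 were highest at ZT14 and 1 was called. Nop2, which methylates a cytosine of 28S rRNA, measured 8.04, 8.16, 8.35, 9.11, 8.70, 8.36 and 8.30. Its ZT14 array was 0.41 above ZT18 and 0.79 above the mean of the others, the largest such difference of the 35 factors. The fit gave an amplitude of 0.41 ± 0.08 with a peak at ZT15.5 ± 0.8 (adjusted p = 0.071). Gnl3 (nucleostemin), a nucleolar GTPase, measured 7.88, 8.20, 8.54, 8.60, 8.19, 8.17 and 7.94. Like Rrn3, it was high at ZT10 and ZT14 and lowest at ZT02, with ZT26 close to ZT02. Its amplitude was 0.32 ± 0.05 with a peak at ZT12.7 ± 0.7 (limma, adjusted p = 0.043). Leaving out ZT18 or ZT22 kept the call of Gnl3 (adjusted p = 0.048 and 0.027), and leaving out any other array lost it (0.097 to 0.170, the last without ZT14).

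Within this group, Pes1, Bop1 and Wdr12 form the PeBoW complex, which acts in the maturation of 28S rRNA. Pes1 measured 8.15, 8.14, 8.15, 8.17, 8.15, 8.09 and 8.18, within 1.06-fold, with an amplitude of 0.017 ± 0.030 (adjusted p = 0.918). Bop1 was highest at ZT18, 1.30-fold above its lowest array, and Wdr12 was highest at ZT14, 1.48-fold above its lowest. The Wdr12 value is uncertain: of the 20 neighbours of its probe set in number, 18 belong to chromosome 7 while Wdr12 lies on chromosome 1, but a second, dimmer probe set with 19 of 20 neighbours on chromosome 1 was also highest at ZT14. Nop16 was highest at ZT18 and lowest at ZT10, 1.61-fold apart (adjusted p = 0.144), and Ebna1bp2 was highest at ZT18 too. Gnl2, a GTPase related to Gnl3, was highest at ZT14 by 0.007 over ZT26. Rrs1, which helps to place 5S rRNA in the large subunit and lay below the minimum, measured 5.83, 6.09, 6.41, 6.54, 6.25, 6.27 and 5.95, and so was also highest at ZT14 and lowest at ZT02.

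Other genes of the pathway had the same maximum in a smaller share, which differed between lists. Of 122 further listed genes, 117 were tested, and 62 of them (53.0%) were highest at ZT14, against 18.2% of all tested genes. Their fitted peaks had a circular mean of ZT15.2 and a mean resultant length of 0.45, and their median amplitude was 0.09, equal to that of all tested genes at this precision. By list, 29 of 42 other large subunit factors, 6 of 11 other RNA polymerase I factors, 19 of 40 other small subunit factors and 4 of 9 other snoRNP proteins had their highest array at ZT14. Factors of rRNA trimming and the exosome did not share a peak time. Of these, 4 of 15 (26.7%) were highest at ZT14. Their fitted peaks fell between ZT12 and ZT18 in 20%, against 26.8% of all tested genes, with a mean resultant length of 0.09. Rcl1 alone was called among the 117 (0.855%, against 4.54% of all tested genes), with its maximum in the light phase. Rcl1, which takes part in cutting the transcript on the small subunit side, measured 10.29, 10.58, 10.58, 10.22, 9.77, 10.02 and 10.31, with its low point at ZT18. Its amplitude was 0.40 ± 0.04 with a peak at ZT7.4 (limma, adjusted p = 0.021).

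**Figure D5:**
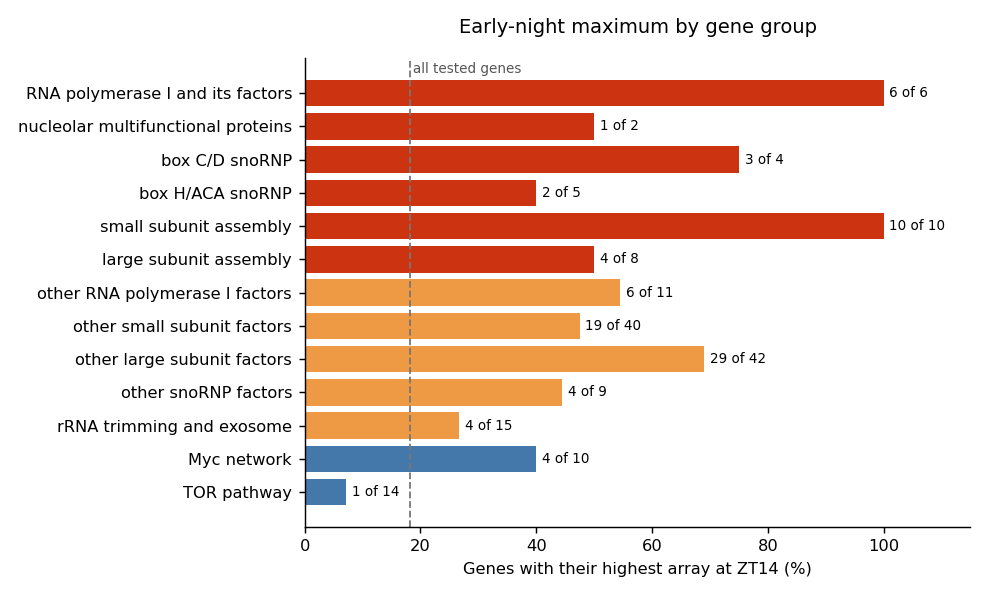
Share of tested genes (%) with their highest array at ZT14, for the 6 role groups of the 35 factors (red), 5 lists of other pathway genes (orange) and 2 lists of regulators (blue), with counts beside the bars and the share of all tested genes as a dashed line. The red bars of RNA polymerase I factors and small subunit assembly factors reach 100%, and the TOR pathway lies below the line with 1 of 14.

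Among genes of the Myc network and of the TOR pathway, limma called 0 of 10 and 0 of 14, against 4.54% of all tested genes. Whether any of them acts on the factors in these livers was not tested. At an unadjusted p under 0.05 there were 5 (50%) and 6 (42.9%), against 26.1%. Myc itself measured 7.72, 7.58, 9.37, 8.91, 8.26, 7.73 and 7.89. Its highest array was ZT10, 1 step before the maximum of most factors, with ZT14 next, and its highest array was 3.47-fold above its lowest. Its amplitude was 0.75 ± 0.18 with a peak at ZT12.5 (adjusted p = 0.102). Max, the partner with which Myc binds DNA, measured 8.37, 8.55, 8.58, 9.00, 8.66, 8.54 and 8.57, with a single high array at ZT14 (amplitude 0.19 ± 0.06, adjusted p = 0.189). Mtor, the kinase of the TOR pathway, measured 9.20, 9.59, 9.58, 9.22, 9.02, 9.16 and 9.22, high in the middle of the light phase and lowest at ZT18 (amplitude 0.29 ± 0.05, peak ZT8.0, adjusted p = 0.056). Eif4ebp1, a repressor of translation that TOR inactivates, had an amplitude of 0.20 ± 0.04 with a peak at ZT9.4 (adjusted p = 0.056). Maf1, a repressor of RNA polymerase III that TOR also restrains, measured 8.37, 8.47, 8.58, 7.81, 8.01, 8.33 and 8.41. Maf1 thus had its lowest array at ZT14, where most factors had their highest (amplitude 0.29 ± 0.09, peak ZT5.0, adjusted p = 0.174).

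In whole liver, a change in the number of cells of a type and a change in RNA per cell cannot be told apart. The summed signal of hepatocyte markers at ZT14 was 1.00 times the mean of the other arrays, and that of endothelial markers (8 of 8 above 85 units) was also 1.00 times. Endothelial markers were not steady, however. They summed to 6641 units at ZT06 and 8479 units at ZT22, with a circular mean of fitted peaks at ZT21.2. For stellate cell markers (8 of 8) the ratio was 0.97, and for markers of proliferating cells (4 of 7, with Mki67, Top2a and Birc5 below 85 units) it was 1.01. Kupffer cell markers (9 of 10, Marco below) summed to 5570 units at ZT10 and 8784 units at ZT26, with a ratio of 0.79 at ZT14. Of those 9 markers, 6 were called rhythmic (66.7%), against 4.54% of all tested genes, with a circular mean of all 9 fitted peaks at ZT23.7, and 1 of the 8 stellate cell markers was called. Lymphocyte markers (3 of 8 above 85 units) had a ratio of 0.80 and cholangiocyte markers (1 of 5) one of 0.94. All these sums take in every marker with a probe set, also those below 85 units. For lymphocytes and cholangiocytes, most of the markers summed lay below that minimum. The part of these shifts in the timing of the factors was not tested.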

How the data were processed

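RNA from 7 pools, 1 per time point and each of 5 livers, was amplified from 100 ng and hybridised to Affymetrix Mouse Gene 1.0 ST arrays. The authors deposited log2 signals per probe set, credited in the submitters' processing notes to RMA in Affymetrix Expression Console 1.1.2637.26569, so background correction, quantile normalization and summary over probes preceded deposit and an overall shift in mRNA per cell would be removed. Of 35556 probe sets, 21789 carried 1 gene symbol in the platform annotation, 1621 several and 12146 none. Those with 1 symbol and a mean above 85 units (12076 probe sets, 10966 genes) were tested with limma 3.58.1 in R 4.3.3 (lmFit, eBayes, F-test of the cosine and sine terms, 4 residual degrees of freedom, Benjamini-Hochberg adjustment), and the script was tested on simulated data. Arrays give no counts, and their number limits the precision.

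The 36 factors, their 6 role groups, the lists of other pathway genes, regulators, clock genes and cell markers, and the alternatives were chosen with earlier results of these data known, and 1 alternative, which subtracted the median of genes of like level, was chosen after seeing the counts. Values on each array are given for factors called rhythmic, for the largest and the smallest amplitude in each role group, for called genes of the pathway and regulator lists, and for Myc, Max, Mtor and Maf1. Eif4ebp1, chosen with these, is given by its fit alone. Nop58, Rrs1 and other genes shown with single values were named to account for the list, after their values were seen. Promoter sequences are RefSeq's. Chromatin data of the study were not analysed here.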

Additional observations from a re-analysis of the deposited data

How the results depend on the processing

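The number of factors called rhythmic (2 of 35) depended on the processing. Without single arrays it was 0 to 1, with 0 when ZT02, ZT06, ZT10, ZT14 or ZT26 was left out. Of all probe sets, 0.108% (without ZT02) to 2.58% (without ZT22) were then called. It was also 0 with ZT02 and ZT26 averaged (0.77% of all probe sets called), on the natural scale (0.563%) and with no minimum level (0.262%). By Fisher's test for one period after adjustment it was 0, as it was for all probe sets. It was 4 with array medians subtracted (Rrn3, Gnl3, Nolc1 and Nop2), where 7.87% of all probe sets were called against 4.47% before. With an intensity trend and robust variances together it was 3 (6.14% of all probe sets). With a mean above 170 units it was 3 of 31 (7.82%). By the methods' mRNA thresholds, as read here, it was 12 (13.6%). Changes of setting thus moved the calls of all probe sets as well. The cause was not tested. Over the 13 factors chosen by the naming rule (Nop58 and Rrs1 not included), 159 of 181 alternative adjusted p lay on the same side of the threshold, 18 were lost (Rrn3 and Gnl3) and 4 gained (Nolc1 and Nop2). Most of the 159 came from factors not called as reported. Some of these lay far from the threshold, such as Pes1 (limma, adjusted p = 0.918), and had little room to cross it. The 2 factors called as reported, Rrn3 and Gnl3, each lost the call in most of the alternatives. Over all probe sets, 540 were called as reported, 950 with array medians subtracted, 57 with no minimum and 13 (without ZT02) to 312 (without ZT22) with 1 array left out.

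The number highest at ZT14 (26 of 35) was 25 with array medians subtracted and 25 with all probe sets of a gene averaged. It was also 25 with medians of genes of like level subtracted, the alternative chosen after seeing the data. The count was 24 of 31 with a mean above 170 units and 27 of 36 with no minimum. Without 1 other array it was 26 to 30, and with ZT02 and ZT26 averaged it was 27, but neither change can lower this count. By other measures, 23 had a fitted peak from ZT12 to ZT18. With ZT18 included the count was 31, which cannot be lower than the count at ZT14 alone. Without the ZT14 array the number highest at ZT14 is not defined, and the fitted peaks then had a mean of ZT16.0 and a mean resultant length of 0.52. The median amplitude lay between 0.12 and 0.20 in log2 and the mean peak between ZT14.0 and ZT16.0. No paired analysis was possible because each time point had 1 pool and 1 array, so the maximum at ZT14 rests on a single array.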
